A study of Mus musculus with 6 samples.

Results

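Potassium channels are membrane proteins that let potassium leave or enter the cell along its gradient, and so set the resting voltage, the firing of excitable cells, cell volume and the drive for calcium entry. The pore is built by several broad classes of subunit. Voltage-gated channels open when the membrane depolarizes, calcium- or sodium-activated channels open with those ions inside the cell, inward rectifiers pass current best near rest, and two-pore-domain channels carry the background leak. Modifier subunits of the voltage-gated class do not form a pore alone, and auxiliary subunits bind pores and change their gating or transport to the surface. In fibroblasts these channels are known for holding the resting voltage and for shaping calcium signals and proliferation.

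The genes described here are the protein-coding rows of the count table whose symbol opens with Kcn, a family letter or letters and a number. There were 93 of them among the 43346 genes of the table, namely 30 voltage-gated pore subunits, 10 modifiers, 8 calcium- or sodium-activated subunits, 15 inward rectifiers, 14 two-pore-domain channels and 16 auxiliary subunits. Of these, 1 gene (*Kcnk18*) had 0 counts in all 6 libraries and 41 more had too few counts for the test, so 51 were tested.

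The RNA was from mouse adult fibroblasts (MAFs), cultured at 3% oxygen as primary cells of ear tissue from female adult C57BL6/J animals. The study compared 3 libraries of senescent MAFs, exposed to 20 Gy of X-rays and kept in culture afterwards, with 3 libraries of control MAFs without that dose. Every culture in both groups was also given 100 nM dexamethasone, a glucocorticoid that sets the clocks of cultured cells to a common phase, for 2 hours and was collected 12 hours after synchronization. The labels do not say whether the libraries of a group came from separate cultures or animals, so the p-values measure the spread between these libraries, which may be technical.

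Total counts were 50288454 to 61747564 in control and 53792998 to 82229553 in senescent libraries, and the number of genes with a count was 21416 to 21833 and 25034 to 26281. Senescent library 3 and control library 1 stood apart from the rest of their groups. Squared differences between libraries were compared with the variance of sampling noise. They were 12.7 and 16.3 times that variance for senescent library 3 and 4.63 and 4.13 times for control library 1. For the closest pairs they were 1.75 and 2.14 times that variance. Levels are given as CPM, the count of a gene relative to the total of its library, scaled by the trimmed mean of M-values (TMM). Fibroblast markers were abundant, with a summed level of 13890 to 15650 CPM in control and 4479 to 5397 CPM in senescent libraries, in which *Col1a1*, *Col1a2*, *Col3a1* and *Pdgfra* were lower and *Dcn*, *Thy1* and *Lum* higher. Chondrocyte markers fell in 5 of 5 genes, from 4705 to 5233 CPM down to 335.2 to 418 CPM. Macrophage markers were higher in 4 of 4 tested genes but low (5.53 to 6.03 against 9.61 to 11.5 CPM in sum), endothelial markers likewise in 4 of 4 (2.43 to 2.83 against 7.52 to 8.34 CPM). Over all genes tested, 36.2% were higher and 34.1% were lower. In bulk RNA, more cells of a kind and more RNA per cell cannot be told apart.

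Promoter windows were searched for TGACTCA, the AP-1 site, and for CACGTG, the E-box bound by clock factors, in the 250 bases before each RefSeq start on GRCm38.p6, on both strands. Windows were found for 68 of the 93 genes. The AP-1 letters were present in 2 of these (2.94%, against 5.16% of 27025 genes with a window) and the E-box letters in 5 (7.35%, against 6.86%), so neither share was far from that of all promoters. The matches are shown because they belong to genes at the centre of the changes below, *Kcnk2*, *Kcnj2*, *Kcnn4* and *Kcnab1*, and to *Kcnip3*, and capitals mark the motif. They lie at chr2:127522183-127522243 (minus strand), chr1:189344285-189344345 (minus strand), chr11:111066053-111066112, chr7:24370103-24370162, chr3:65108825-65108884 and chr3:65188031-65188090 (plus strand), and each is written 5′ to 3′ along its gene. The *Kcnk2* window and the second *Kcnab1* window precede starts inside the gene, and *Kcne4* and *Kcnh4* also held an E-box.
Kcnip3: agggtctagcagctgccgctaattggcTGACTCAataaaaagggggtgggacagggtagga
Kcnk2: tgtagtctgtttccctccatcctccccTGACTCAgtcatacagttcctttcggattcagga
Kcnj2: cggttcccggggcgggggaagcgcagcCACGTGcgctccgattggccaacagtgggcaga
Kcnn4: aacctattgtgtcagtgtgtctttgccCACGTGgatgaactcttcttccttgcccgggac
Kcnab1, first window: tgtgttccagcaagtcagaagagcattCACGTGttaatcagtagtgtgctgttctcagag
Kcnab1, second window: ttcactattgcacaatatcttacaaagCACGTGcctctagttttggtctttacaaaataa
The first motif base lay 122 bases before the start in *Kcnip3*, 126 in *Kcnk2*, 84 in *Kcnj2*, 133 in *Kcnn4*, and 162 and 45 in *Kcnab1*. A match is a description of the sequence and not evidence of binding. Among these genes *Kcnip3*, *Kcnk2*, *Kcnn4* and *Kcnab1* rose and *Kcnj2* fell in senescent MAFs.

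The leading potassium channel genes differed between control and senescent MAFs. The most abundant pore gene of control cells, *Kcna6*, fell 13.0-fold, and *Kcnk2* was the highest in senescent cells, followed by *Kcnn4* with the exon lengths of the count table or by *Kcnj2* with those of GENCODE M21. By edgeR's quasi-likelihood test, 47 of the 51 tested genes had an adjusted p under 0.05 (92.2%, against 70.3% of the 17589 genes tested). Of these, 37 were higher in senescent cells (72.5%, against 36.2% of all genes tested) and 10 were lower (19.6%, against 34.1%). With an absolute log2 fold change over 1 as well, 32 were higher (62.7%, against 17.7%) and 5 were lower (9.8%, against 12.3%). The 3 control and 3 senescent values did not overlap for 46 of the 51 (90.2%, against 75.3%).

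These counts lean on genes that were near 0 in control cells. The filter passed 20 of the 51 through senescent libraries alone and none through control libraries alone, so any difference in those 20 was bound to be an increase. Among the 20 were *Kcna1*, *Kcna2*, *Kcna3*, *Kcna4*, *Kcnc2*, *Kcnc4*, *Kcnd3*, *Kcnh1*, *Kcnh7*, *Kcnq1* and *Kcnq3* of the voltage-gated class. From the other classes came *Kcng1*, *Kcng2*, *Kcnma1*, *Kcnj4*, *Kcnj8*, *Kcnk13*, *Kcne1l* and *Kcnmb4*. The direction of these genes was set by the filter, and their p-values add no support to it. In a new fit of genes that held at least 10 counts in every library, 11 of 24 potassium channel genes were higher (45.8%, against 33.9% of 15205 genes) and 9 were lower (37.5%, against 34.8%). In that set the shares were closer to those of all genes.

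**Figure D1:**
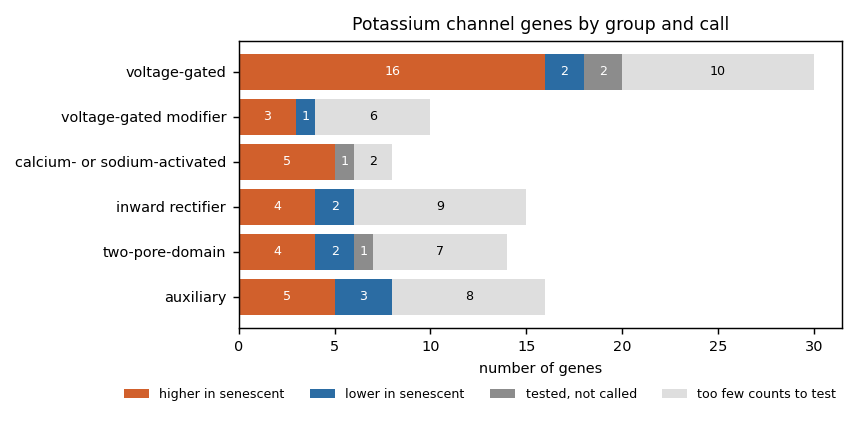
Number of potassium channel genes (horizontal axis, genes) in each class of subunit, divided into those higher in senescent libraries, lower, tested but not called at an adjusted p under 0.05, and with too few counts to test. The voltage-gated class is the largest, with 20 of the 51 tested genes and 16 of the 37 higher ones, and 12 of its 20 passed the filter through senescent libraries alone.

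Measured as a TMM-scaled CPM of at least 1 in all 3 libraries of a group, 18 genes were expressed in control MAFs and 21 in senescent MAFs, and 15 of these were expressed in both. The genes that met this level in control cells alone were *Kcnj13*, *Kcnk5* and *Kcns1*. Those that met it in senescent cells alone included *Kcne1l*, *Kcnf1*, *Kcnh1*, *Kcnn3* and *Kcnq5*. In all, 26 of the 93 genes had 0 counts in every control library, which allows a level of 0.0502 to 0.0613 CPM per library, where 3 counts stand for the limit of a count of 0 and cover counting error only. In senescent cells 2 genes, *Kcnk18* and *Kcnj11*, had 0 counts in every library. A control library held counts of 55 to 59 of the 93 genes and a senescent library of 82 to 88, at total counts up to 61747564 and 82229553, while the genes with a count in the whole table numbered 21416 to 21833 and 25034 to 26281.

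The 42 genes that were not tested reached at most 20 counts in any library. Among the inward rectifiers these included *Kcnj11*, the pore of the ATP-sensitive channel of pancreatic beta cells (1 count in control library 3), *Kcnj3*, *Kcnj5*, *Kcnj6* and *Kcnj9*, the G protein-gated channels (0 counts in every control library and at most 4 in a senescent library), and *Kcnj10*, the glial channel (1, 2 and 1 counts against 4, 10 and 17). Among the voltage-gated genes they included *Kcna5*, *Kcna10*, *Kcnb2* and *Kcnd2*, and among the two-pore-domain genes *Kcnk4*, *Kcnk9* and *Kcnk16*. Without the filter 41 of the 42 could be tested, and 15 were called higher and 0 lower, among them *Kcns3* (3, 0 and 2 against 17, 17 and 10 counts) and *Kcnh4* (1, 4 and 3 against 9, 13 and 20), both chosen after their values were seen. Many of the 41 held 0 counts in every control library, so a lower call was out of reach for them. The share called over all genes below the filter was not computed. In that fit, with the genes that passed the filter included, 49 of 92 potassium channel genes were higher (53.3%, against 25.9% of 29776 genes). Of the 92, 9 were lower (9.78%, against 20.3%).

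The pore-forming genes were next added up per length, because counts of genes of unequal length cannot be compared with each other directly. Levels per length are TMM-scaled CPM per kilobase of exon. The sum over 67 pore-forming genes was 36.5, 36.4 and 35.3 in control libraries and 36.7, 36.9 and 33.9 in senescent libraries. The groups overlapped, at 36.1 ± 0.636 (SD, n = 3) and 35.8 ± 1.69 (SD, n = 3), a ratio of 0.993 (two-sided exact permutation test, p = 1). This rests on the exon lengths of the count table. With GENCODE M21 lengths the sum was 34.6, 34.4 and 33.1 in control and 31.1, 30.8 and 29.9 in senescent libraries, without overlap (ratio 0.899, two-sided exact permutation test, p = 0.1, the smallest possible), so whether the sum fell depends on the annotation. The changes of the classes given next kept their direction, without overlap, with either set of lengths.

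The voltage-gated genes together went from 14.5 ± 0.519 to 7.44 ± 0.444 (SD, n = 3 each) in level per length, a ratio of 0.513. Inward rectifiers went from 9.04 ± 0.438 to 6.6 ± 0.519, a ratio of 0.731. Two-pore-domain genes went up from 8.97 ± 0.139 to 12.9 ± 0.182, a ratio of 1.44, and calcium- or sodium-activated genes from 3.56 ± 0.347 to 8.88 ± 1.63, a ratio of 2.50. None of these 4 class sums overlapped between the groups, and each gave p = 0.1 in the two-sided exact permutation test, the smallest p that 3 against 3 libraries can give. *Kcna6* alone held 10.7 of the 14.5 of the voltage-gated class in control cells and 0.82 of the 7.44 in senescent cells. The fall of that class was thus the fall of *Kcna6*, and the other voltage-gated genes together summed higher in senescent cells. *Kcnk2* held 5.61 of 8.97 and 9.85 of 12.9 of the two-pore-domain sum. *Kcnn4* held 2.38 of 3.56 and 6.71 of 8.88 of the calcium- or sodium-activated sum.

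*Kcna6* made up 29.6% of the summed pore level in control libraries (28.9% to 30.2%) and 2.30% in senescent libraries (2.10% to 2.52%). *Kcnj2* went from 17.3% to 8.05%, and *Kcnj13* from 6.20% to 0.817%. *Kcnk2* went from 15.6% to 27.5%, *Kcnn4* from 6.6% to 18.6% and *Kcnj15* from 1.12% to 6.72%. No library of one group overlapped the other for any of these 6 genes. The exon lengths are those of the count table, and for 23 of the 93 genes they differed by over 10% from GENCODE M21. The one that matters here is *Kcnn4*, at 2034 bases against 5115, and with the longer model its share went from 2.78% to 8.69%. *Kcnk2* then went from 16.5% to 32.2% and *Kcna6* from 31.3% to 2.69%.

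**Figure D2:**
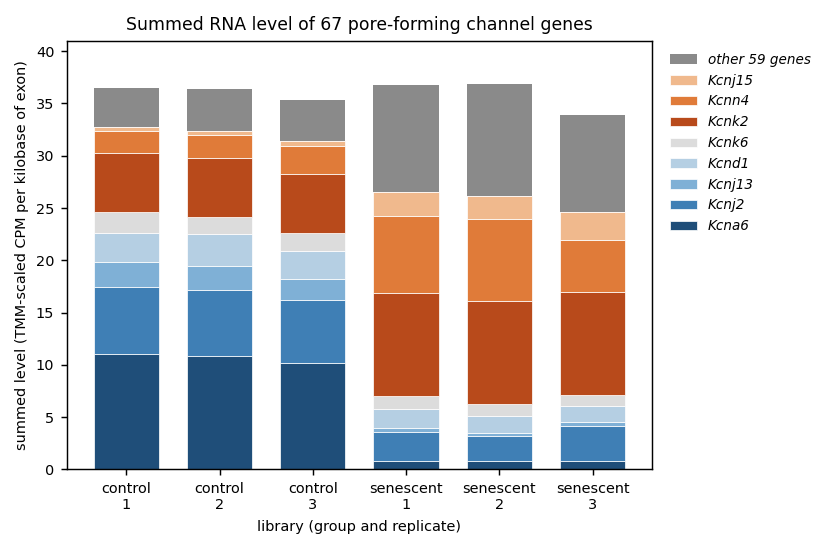
Summed RNA level of the 67 pore-forming genes (vertical axis, TMM-scaled CPM per kilobase of exon) in each of the 6 libraries, stacked by gene for the 8 with the largest shares named in the legend and by the other 59 together. With the exon lengths of the count table the bars stand between 33.9 and 36.9, while the *Kcna6* segment shrinks from 29.6% to 2.30% of the sum and those of *Kcnk2* and *Kcnn4* widen.

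In order of level per length, control MAFs had *Kcna6* (10.7), *Kcnj2* (6.24), *Kcnk2* (5.61), *Kcnd1* (2.86), *Kcnn4* (2.38), *Kcnj13* (2.24), *Kcns1* (2.23) and *Kcnab3* (2.06). The first 4 were separated from each other and from the next in every library, while neighbours from *Kcnn4* on overlapped. *Kcna6* stood at the 70.3rd percentile of all genes tested, so even the leading channel was of moderate abundance. In senescent MAFs the order was *Kcnk2* (9.85), *Kcnn4* (6.71), *Kcnj2* (2.86), *Kcnj15* (2.40), *Kcnab1* (1.86), *Kcnd1* (1.70), *Kcne4* (1.65) and *Kcne1l* (1.20). There *Kcnk2* and *Kcnn4* were separated from their neighbours, *Kcnj2* overlapped *Kcnj15*, and neighbours from *Kcnab1* on overlapped. With the longer exon model *Kcnn4* was rank 3 in senescent cells and rank 10 in control cells.

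*Kcna6* encodes Kv1.6, a delayed rectifier of the Shaker family. Its TMM-scaled CPM was 65.4, 64.3 and 60.6 in control libraries and 4.96, 4.61 and 5.08 in senescent libraries. Every senescent library was far below every control library, with a log2 fold change of -3.70 ± 0.075 (SE, adjusted p = 1.5e-08, edgeR's quasi-likelihood test). The gene lies on the minus strand of chromosome 6 at 126708329 to 126740674, and 39.6% of its exon bases are overlapped on the other strand by *Gm26673*, which had 1, 2 and 0 counts in control libraries and 0 in senescent libraries. Its neighbour *Kcna1*, Kv1.1, at 126636463 to 126645801 on the same strand, moved the other way, with 0, 0 and 3 counts against 50, 72 and 69. The other gene of this cluster, *Kcna5*, had at most 2 counts in any library.

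*Kcnd1*, Kv4.1, a channel of the rapidly inactivating A-type, was the other voltage-gated pore gene that fell. Its CPM was 14.6, 16.3 and 14.4 in control and 10.1, 8.78 and 8.13 in senescent libraries, without overlap (log2 fold change -0.75 ± 0.10 SE, adjusted p = 3.2e-04). The related *Kcnd3*, Kv4.3, rose from 5, 0 and 2 counts to 39, 60 and 86 (log2 fold change 4.17 ± 0.53). *Kcnd1* and *Kcnd3* thus had opposite signs, and per length *Kcnd1* stayed the more abundant, at 1.70 against 0.0862 in senescent cells.

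The voltage-gated genes that rose, 16 of 20 tested beside 36.2% of all genes tested, started low. Of the 20, 12 passed the filter through senescent libraries alone. With at least 10 counts in every library and a new fit, 3 of 6 were higher and 2 lower, beside 33.9% and 34.8% of all genes in that fit. *Kcnq5*, Kv7.5, which carries an M-type current, had a CPM of 0.922, 1.12 and 1.43 in control and 7.16, 7.56 and 7.97 in senescent libraries. The groups were well apart (log2 fold change 2.71 ± 0.15 SE, adjusted p = 2.0e-06). *Kcnh2*, the ERG1 channel of cardiac repolarization, had a CPM of 2.04, 2.44 and 2.25 against 5.12, 5.54 and 3.09 (log2 fold change 1.02 ± 0.22, adjusted p = 0.0040). Its lowest senescent value came from senescent library 3, still above the control libraries.

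*Kcnh1*, EAG1, a channel studied for its expression in proliferating and tumour cells, had 2, 1 and 2 counts in control libraries and 99, 146 and 157 in senescent libraries. All senescent libraries were thus well above the control libraries, at a ratio of 58.2 of depth-scaled counts (95% counting interval 24.7 to 180.2). The filter passed *Kcnh1*, *Kcna3* and *Kcna1* through senescent libraries alone, so their direction was set by the filter. *Kcna3*, Kv1.3, the channel of lymphocytes, had 0, 1 and 1 counts against 48, 48 and 64 (ratio 57.9, interval 15.8 to 482.3). *Kcna1* had a ratio of 46.1 (interval 15.5 to 225.4). The macrophage and other leukocyte marker *Ptprc* also went up, from 12, 7 and 9 to 80, 95 and 128 counts, and its part in the *Kcna3* counts was not tested.

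*Kcnc4*, Kv3.4, had 0 counts in all control libraries. It had 47, 53 and 59 counts in senescent libraries, at least 12.9-fold higher than the limit of 3 counts per control library. *Kcnc2*, with 13, 22 and 37 counts against 0, was at least 5.54-fold higher. *Kcna4*, Kv1.4, rose from 6, 6 and 5 to 53, 98 and 96 counts (log2 fold change 3.36 ± 0.24). *Kcnq1*, the slow cardiac delayed rectifier, stayed low at 4, 6 and 6 against 17, 26 and 25 counts (log2 fold change 1.60 ± 0.29). Like *Kcnc4*, *Kcnc2* and *Kcna4*, it passed the filter through senescent libraries alone, so its direction was set by the filter.

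Other voltage-gated genes that rose were *Kcna2*, *Kcnh7* and *Kcnq3*, all under 1 CPM in senescent cells, and *Kcna2* (adjusted p = 0.047) lost its call without control library 2 or 3 or any 1 senescent library. The filter passed *Kcna2*, *Kcnh7* and *Kcnq3* through senescent libraries alone. *Kcnh7* had 1, 0 and 0 counts against 10, 17 and 24, and 4.57% of its exon bases overlap *Gca* on the other strand, which itself rose from 0.518 to 3.38 CPM. A voltage-gated gene without a call was *Kcna7* (12, 3 and 5 counts against 7, 17 and 22, adjusted p = 0.27). Its groups overlapped, and at such counts a change could have been missed.

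Many voltage-gated channels are known from neurons, so neuronal markers are set beside them. Of 8 neuronal markers 6 were tested and 5 were higher, beside 36.2% of all genes tested. The summed CPM of the 8 was 14 to 16.8 in control and 38.1 to 48.2 in senescent libraries. *Stmn2* and *Tubb3*, cytoskeletal genes that other cells also express, made up most of that sum. The neurofilament gene *Nefl* went from 0 counts in each control library to 93, 140 and 142, and *Snap25* from 0 to 16, 22 and 29. With 0 in control libraries, *Nefl* and *Snap25* could only be called higher. The synaptic marker *Syp* was not called, at 28, 31 and 26 counts in control and 19, 57 and 50 in senescent libraries. The nuclear marker *Rbfox3* had 0 counts in control and 5, 13 and 9 in senescent libraries, at a senescent mean of 0.120 CPM, and *Elavl4* 0 against 4, 4 and 12. The part of these in the channel counts was not tested.

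**Figure D3:**
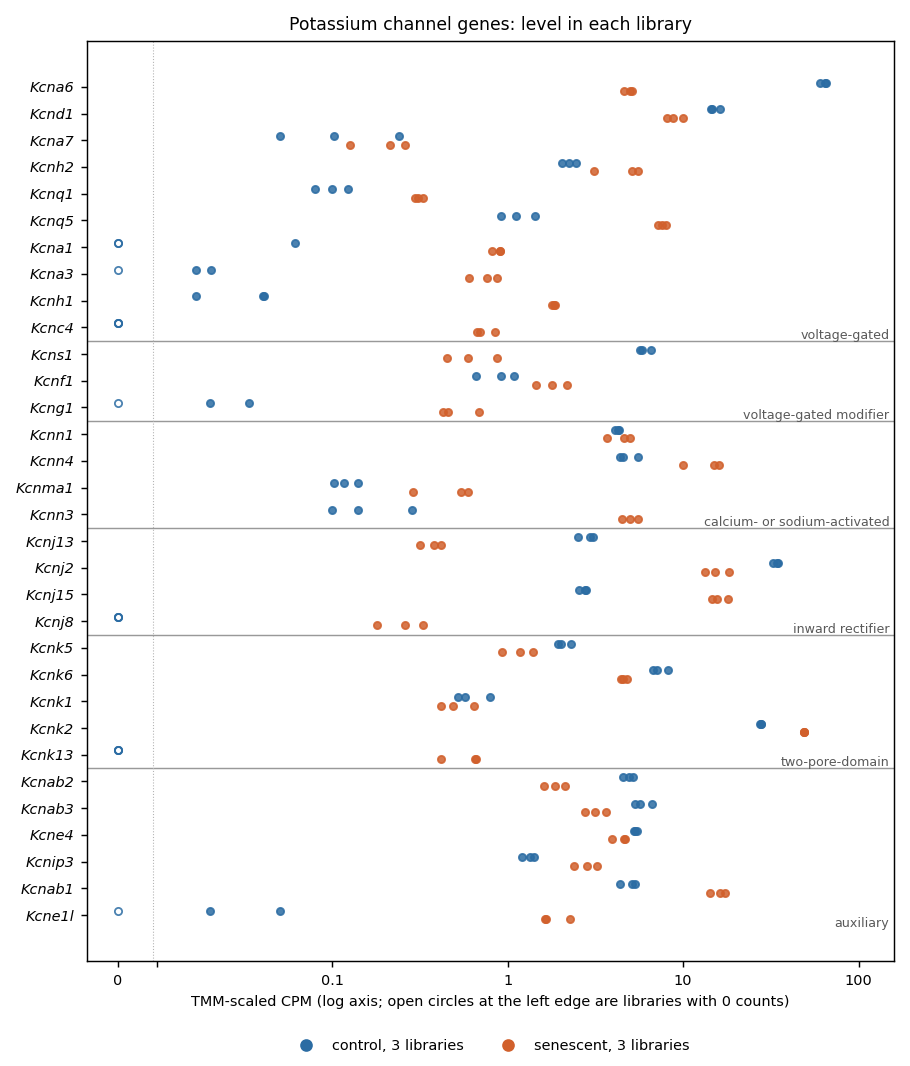
TMM-scaled CPM (horizontal log axis, with 0 drawn as open circles at the left edge) of 32 potassium channel genes named by rule, grouped by class, with 1 point per library for the 3 control and 3 senescent libraries. *Kcna6* sits at 60.6 to 65.4 in control and 4.61 to 5.08 in senescent libraries, and the rows from *Kcna1* to *Kcnc4* show control libraries at or near 0.

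Of the 10 modifier genes 4 were tested. *Kcns1*, Kv9.1, a silent subunit that pairs with Kv2 channels, had a CPM of 5.85, 5.69 and 6.58 in control libraries and 0.595, 0.871 and 0.450 in senescent libraries. It fell in all of them by 3.24 ± 0.21 (SE) on the log2 scale (adjusted p = 4.9e-06), the next deepest fall after *Kcna6* among the 51. *Kcnf1*, Kv5.1, rose from 0.662, 0.920 and 1.08 to 2.17, 1.79 and 1.45 CPM (log2 fold change 1.00 ± 0.22, adjusted p = 0.0043). *Kcng1*, Kv6.1, had 1, 2 and 0 counts against 38, 36 and 36 (ratio 26.5, interval 8.85 to 130.7). *Kcng2* was called at 5, 5 and 7 against 13, 15 and 17 counts (adjusted p = 0.036) and lost the call without control library 1 or 2 or any 1 senescent library. The filter passed *Kcng1* and *Kcng2* through senescent libraries alone.

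The calcium-activated genes either rose or did not pass the test. *Kcnn4*, the intermediate-conductance channel KCa3.1 of fibroblasts, red cells and lymphocytes, had a CPM of 4.39, 4.57 and 5.54 in control and 15.0, 16 and 10.0 in senescent libraries. The lowest senescent value, from library 3, was still above the highest control value (log2 fold change 1.5 ± 0.19 SE, adjusted p = 2.1e-04), and without that library the log2 fold change was 1.69. *Kcnn3*, the small-conductance channel SK3, had 7, 6 and 14 counts in control libraries and 248, 397 and 465 in senescent libraries. It was among the largest increases at these levels (log2 fold change 4.86 ± 0.26, adjusted p = 1.6e-06), with no overlapping gene in the annotation. The other member with a moderate level, *Kcnn1* (SK1), was not called, at a CPM of 4.07, 4.25 and 4.31 against 4.58, 5 and 3.70 (log2 fold change 0.070 ± 0.13, adjusted p = 0.65).

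*Kcnma1*, the large-conductance BK channel opened by calcium and voltage, was low in both groups, at 7, 7 and 5 counts against 16, 43 and 50. It was higher in senescent cells (log2 fold change 2.01 ± 0.37, adjusted p = 0.0017), without overlap, but the filter passed it through senescent libraries alone. The filter passed its accessory subunit *Kcnmb4* likewise, at 3, 0 and 7 counts against 26, 26 and 25 (log2 fold change 2.45 ± 0.64, adjusted p = 0.0091). Of the exon bases of *Kcnmb4*, 31.5% overlap antisense genes that had at most 4 counts in a library. *Kcnu1*, the pH-sensitive SLO3 channel of sperm, went from 11, 14 and 14 to 40, 62 and 84 counts. The sodium-activated *Kcnt2* was called at 14, 6 and 11 against 13, 53 and 59 counts, but its groups overlapped and the call was lost without control library 2, control library 3 or senescent library 2.

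Inward rectifiers moved in both directions. *Kcnj2*, Kir2.1, the classical channel of the resting voltage, had a CPM of 34.9, 34.3 and 32.7 in control and 15.2, 13.4 and 18.2 in senescent libraries. It fell without overlap by 1.12 ± 0.11 (SE) on the log2 scale (adjusted p = 5.6e-05) and was still the most abundant inward rectifier per length in senescent cells, next to *Kcnj15*. *Kcnj15*, Kir4.2, rose from 2.55, 2.76 and 2.80 to 15.5, 14.6 and 18.1 CPM (log2 fold change 2.57 ± 0.11, adjusted p = 5.5e-07). Per length, *Kcnj2* stood at 6.24 and *Kcnj15* at 0.402 in control cells, and at 2.86 and 2.40 in senescent cells, where their libraries overlapped.

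*Kcnj13*, Kir7.1, a channel of epithelia such as the retinal pigment layer, had 153, 176 and 123 counts in control and 21, 25 and 35 in senescent libraries (log2 fold change -2.94 ± 0.17, adjusted p = 2.2e-06). The groups were far apart, but 49.1% of its exon bases are overlapped on the other strand by *Gigyf2*, which had a mean of 98 CPM without and 111.8 CPM with irradiation, and the strand setting of the counting is not given in the sources used here. *Kcnj4*, Kir2.3, had 4, 3 and 5 counts against 88, 139 and 60 (log2 fold change 4.11 ± 0.52). *Kcnj14*, Kir2.4, had 13, 19 and 7 against 26, 37 and 43 (log2 fold change 0.98 ± 0.29, adjusted p = 0.016). Of *Kcnj14*, 20.2% of the 100-base stretches also occur in *Gm5522*, so its counts are uncertain.

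*Kcnj8*, Kir6.1, the pore of the ATP-sensitive channel of vessels, had 0 counts in control libraries and 10, 26 and 22 in senescent libraries, at least 4.48-fold higher. Its partner *Abcc9*, the sulfonylurea receptor SUR2, had 0, 0 and 1 counts against 157, 197 and 271. Pore and partner were thus detected together in senescent libraries, and no control library held more than 1 count of either. The alternative partners *Kcnj11* and *Abcc8* had at most 1 count in any control library and 0 (*Kcnj11*) and 6, 15 and 8 counts (*Abcc8*) in senescent libraries, too few to test.

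*Kcnk2*, TREK-1, a leak channel opened by stretch, warmth and lipids, varied little between the libraries of a group. Its CPM was 27.9, 27.6 and 27.7 in control and 48.7, 48.7 and 48.7 in senescent libraries. These values lie closer together than counting error alone would usually leave them, so their spread is no measure of precision. The gain of 1.76-fold was large beside its SE (log2 fold change 0.81 ± 0.055 SE, adjusted p = 5.4e-06). With 2698 to 4108 counts in senescent libraries, *Kcnk2* was the leading potassium channel RNA there. On the other strand *A430027H14Rik* overlaps 12.2% of its exon bases. *Kcnk10*, the related TREK-2, rose less, from 1.48, 1.59 and 1.29 to 2.51, 2.25 and 2.04 CPM (log2 fold change 0.63 ± 0.14, adjusted p = 0.0043).

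*Kcnk6*, TWIK-2, and *Kcnk5*, TASK-2, fell. *Kcnk6* had a CPM of 8.18, 6.69 and 7.11 against 4.76, 4.42 and 4.53 (log2 fold change -0.68 ± 0.10, adjusted p = 5.5e-04), and *Kcnk5* 1.95, 2.31 and 2.00 against 1.39, 1.17 and 0.924 (log2 fold change -0.86 ± 0.17, adjusted p = 0.0026). Neither overlapped between the groups. *Kcnk1*, TWIK-1, was not called and overlapped, at 0.521, 0.569 and 0.797 against 0.487, 0.416 and 0.640 CPM (adjusted p = 0.36). *Kcnk13*, THIK-1, the halothane-inhibited channel known from microglia, had 0 counts in control libraries and 23, 52 and 55 in senescent libraries, at least 10.0-fold higher, beside the higher macrophage markers given above. Its relation to those markers was not tested. *Kcnk3*, TASK-1, was low (13, 9 and 12 against 21, 32 and 28 counts, adjusted p = 0.036), and its call was lost without control library 2 or 3 or senescent library 1 or 2.

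Auxiliary subunits rose in 5 and fell in 3 of 8 tested genes, beside 36.2% and 34.1% of all genes tested. Of the 8, 2 passed the filter through senescent libraries alone, *Kcne1l* and *Kcnmb4*. With at least 10 counts in every library and a new fit, 2 of 5 were higher and 2 lower, beside 33.9% and 34.8% of all genes in that fit. The 3 beta subunits of Kv1 channels, which resemble aldo-keto reductases, divided by gene. *Kcnab1* had a CPM of 5.13, 5.34 and 4.37 in control and 14.2, 16.3 and 17.4 in senescent libraries (log2 fold change 1.69 ± 0.11 SE, adjusted p = 6.2e-06). *Kcnab2* had 4.57, 5.20 and 4.92 against 1.86, 2.12 and 1.61 (log2 fold change -1.40 ± 0.13, adjusted p = 3.5e-05), and *Kcnab3* 5.71, 6.68 and 5.31 against 3.16, 3.63 and 2.75 (log2 fold change -0.89 ± 0.14, adjusted p = 6.3e-04). The groups of all 3 were separate, and *Kcnab1*, lowest of the 3 per length in control cells, was the highest in senescent cells. *Kcnab3* shares 5.13% of its exon bases with the antisense gene *Kcnab3os*, which had 20 counts at most.

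*Kcne1l*, also called KCNE5, an inhibitory partner of KCNQ channels on the X chromosome, had 1, 3 and 0 counts in control libraries and 126, 129 and 139 in senescent libraries (ratio 71.3, 95% counting interval 27.6 to 263). It had no overlapping gene, and every senescent library was far above the control libraries. *Kcne4*, which also restrains KCNQ and Kv1 channels, had a CPM of 5.31, 5.47 and 5.23 against 4.60, 3.91 and 4.67 (log2 fold change -0.28 ± 0.10, adjusted p = 0.036). That small fall lost its call when control library 1, 2 or 3 or senescent library 1 or 2 was left out (adjusted p = 0.057 to 0.13). *Kcnip3*, a calcium-binding partner of Kv4 channels also known as DREAM, rose from 1.34, 1.41 and 1.21 to 2.85, 3.23 and 2.38 CPM (log2 fold change 1.09 ± 0.15, adjusted p = 3.7e-04). *Kcnip2* was called at 5, 7 and 11 against 22, 34 and 20 counts (adjusted p = 0.023), and that call was lost without control library 1 or 2 or senescent library 1 or 2.

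**Figure D4:**
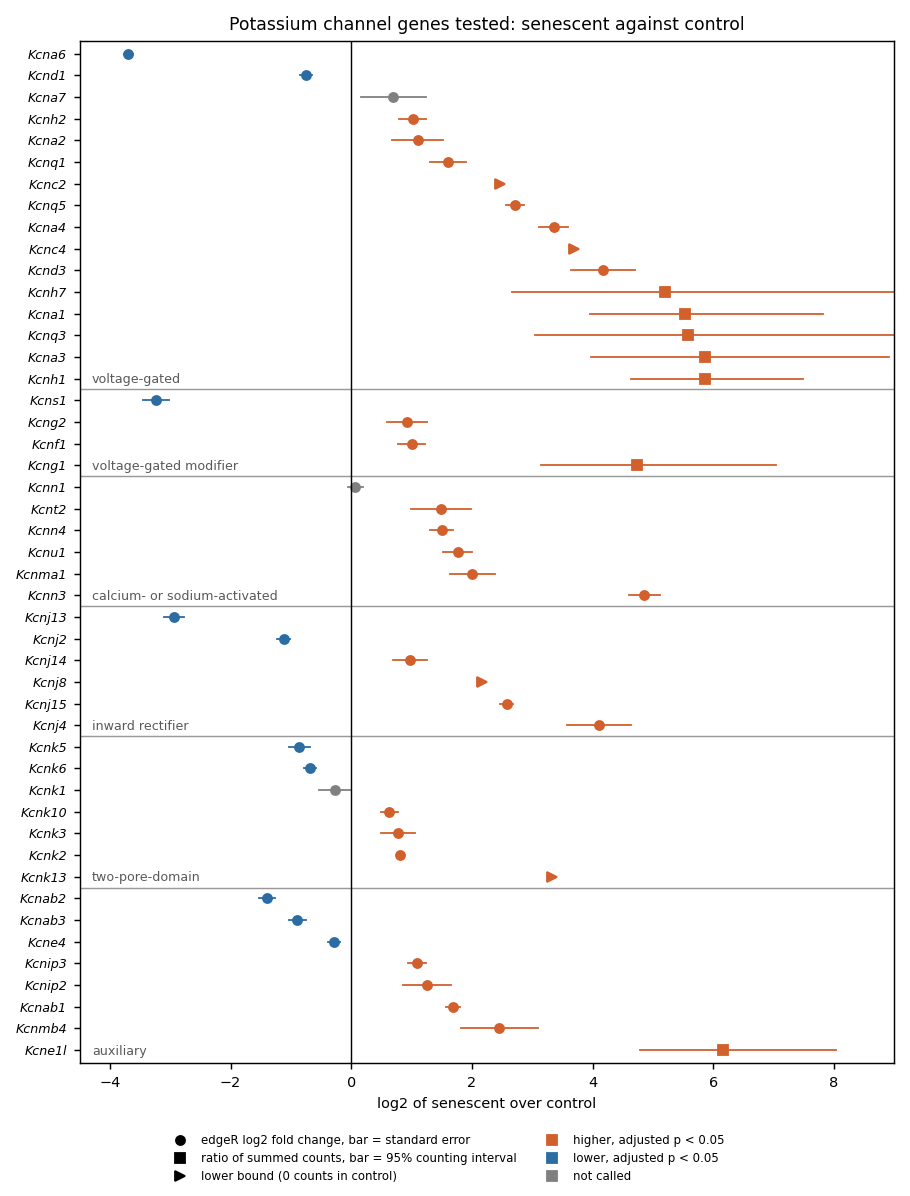
Log2 of senescent over control (horizontal axis) for 47 tested potassium channel genes by class, as edgeR's log2 fold change with its standard error, as a ratio of summed counts with its 95% counting interval for genes with 1 to 3 counts in control libraries, or as a lower bound for genes with 0. The points run from -3.70 for *Kcna6* to the *Kcne1l* ratio of 71.3, and the intervals of *Kcnh7* and *Kcnq3* run past the right edge.

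Other genes that act on potassium were taken from a list of 37, of which 26 were tested, 17 were higher and 4 were lower (36.2% and 34.1% of all genes tested) and 5 were not called, at a median log2 fold change of 0.61 beside 0.0085 over all genes tested. Of the partner subunits, 3 of 10 were tested and all 3 rose. Besides *Abcc9* these were *Dpp6*, a Kv4 partner with 0, 5 and 2 against 58, 61 and 83 counts (log2 fold change 4.34 ± 0.47), and *Amigo1*, a Kv2 partner (log2 fold change 0.48 ± 0.10). Of channels of other families, 5 of 6 tested rose, among them the intracellular channels *Tmem38a* (log2 fold change 0.76 ± 0.10) and *Tmem38b* (log2 fold change 0.73 ± 0.077). The lysosomal potassium channel *Tmem175* fell by 0.51 ± 0.066 on the log2 scale.

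The sodium-potassium pump builds the gradient that these channels spend. Of 9 tested pump genes 5 were higher, 1 was lower and 3 were not called, beside 36.2% higher and 34.1% lower over all genes tested. The beta subunits, which bring the pump to the surface, divided. *Atp1b1* rose from 230, 249 and 251 to 2447, 3526 and 4490 counts (log2 fold change 3.35 ± 0.12, adjusted p = 1.7e-07), and *Atp1b2* fell from 713, 855 and 659 to 164, 239 and 252 (log2 fold change -2.23 ± 0.081, adjusted p = 1.8e-07). *Atp1b3*, the most abundant beta subunit per length in both groups, rose by less, at 137.2 against 190.9 CPM (log2 fold change 0.48 ± 0.063).

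Of the cation-chloride cotransporters, 4 of 8 tested were higher and 2 lower, beside 36.2% and 34.1% of all genes tested. The abundant *Slc12a2* (NKCC1), which brings potassium in with sodium and chloride, fell by 0.52 ± 0.12 on the log2 scale, from 113.5 to 79.1 CPM. *Slc12a4* (KCC1) was called higher (log2 fold change 0.42 ± 0.14, adjusted p = 0.028), but its groups overlapped. *Slc12a7* (KCC4) was not called (-0.27 ± 0.11, adjusted p = 0.053). The renal *Slc12a1* rose from 10, 7 and 1 to 50, 79 and 113 counts.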

How the data were processed

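Polyadenylated RNA of 6 libraries (stranded mRNA kit, 200 ng of RNA, paired reads of 100 bases) was mapped to mm10 with STAR and counted on genes with Subread by the authors, who deposited raw counts per gene. The strand and multimapping settings of the counting are not given in the sources used here. Columns were matched to samples by name, and 0 columns of other samples were present.

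From the counts, genes were kept by filterByExpr (about 10 counts, 0.173 CPM, in 3 libraries), scaled by TMM and compared by edgeR's quasi-likelihood test (edgeR 4.0.16, limma 3.58.1, R 4.3.3), robust and two-sided, with group as the only term and Benjamini-Hochberg adjustment over 17589 genes. A call is an adjusted p under 0.05, and the fold limit is an absolute log2 fold change over 1. Errors are SE for log2 fold changes. Against 0 control counts a lower bound was set at 3 counts per library, and with 1 to 3 control counts in a library at most a ratio of summed counts with an exact 95% interval is given. Such intervals cover counting error only. The method was tested on simulated data. The depth of 50288454 to 82229553 counts sets the precision.

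The genes, lists and tests were chosen with earlier results of these data known. Named genes were, among those called with a mean of at least 50 counts and no overlap, the 12 largest changes each way, the 8 highest levels per length in each group, those at 3 counts or fewer in every library of one group and at least 20 in every library of the other, the 4 most abundant without a call, and *Kcnma1*, *Kcnn4*, *Kcnh1*, *Kcnh2*, *Kcnj2*, *Kcnj8*, *Kcnk2*, *Kcna3* and *Kcnq1*. Some genes are not reported here by name. The other genes named were chosen after their values were seen. Alternatives were RLE scaling, library size alone, no filter, at least 10 counts in every library, the exact test, DESeq2 1.42.0, protein-coding genes alone, an unadjusted p, a replicate block and each library left out. Leaving out control library 1 and senescent library 3 together, and other scalings and lengths of the summed level, were chosen after seeing the data. Class sums with GENCODE M21 lengths were added likewise. Exon overlaps and lengths came from GENCODE M21. Of other markers, 4 of 5 tested Schwann cell and melanocyte genes and 1 of 3 keratinocyte genes were lower, beside 34.1% of all genes tested. Of muscle markers, 2 of 3 skeletal and 2 of 5 smooth muscle genes were higher, beside 36.2%.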

Additional observations from a re-analysis of the deposited data

How the results depend on the processing

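With at least 10 counts required in every library, 24 potassium channel genes were tested and 20 were called, 11 of them higher, and 14 passed the fold limit, 9 of them higher, because the genes near 0 in control cells were no longer tested. Over all genes that fit called 10437 of 15205, 5151 of them higher. With no filter beyond 1 count, 58 of 92 were called, 49 of them higher (53.3%, against 25.9% of all genes in that fit). The summed pore level had a ratio of 1.048 when scaled by library size alone and 0.899 with GENCODE M21 exon lengths, where the groups no longer overlapped. Leaving out 1 library at a time gave 41 to 46 calls with 32 to 37 higher and 9 to 10 lower, 33 to 38 past the fold limit with 28 to 33 higher and 5 lower, 18 to 23 partner genes called and a ratio of the summed pore level of 0.979 to 1.026. Over all genes those fits called 11214 to 13695 of 17757 to 18274, with 5930 to 7052 higher and 5284 to 6643 lower. DESeq2 called 43 and the exact test 46, and leaving out control library 1 and senescent library 3 together gave 47. Over all genes DESeq2 called 12211 and the exact test 12527 of 17589, and the fit without those 2 libraries 14131 of 17788. Correlations of same-numbered libraries were -0.374, 0.293 and -0.263. They cannot tell whether the replicate numbers pair the libraries, because the outlying control library 1 and senescent library 3 weigh on them. With the replicate block 41 were called, 32 higher and 9 lower, 33 passed the fold limit, and 22 partner genes were called. Over all genes the block fit called 11624 of 17589, 5964 higher and 5660 lower. Of 511 values of the 35 genes named by rule, 501 kept their direction and side of the threshold, 10 lost the call (all *Kcne4*) and 0 reversed. The remaining calls lost under a left-out library or the block were those of *Kcna2*, *Kcng2*, *Kcnip2*, *Kcnk3* and *Kcnt2*. Scaling by library size alone moved the median log2 fold change of all genes by 0.078, and RLE by 0.020. Depth limits what can be said of the 42 genes not tested, at most 20 counts each.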

Other observations

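Rows with a Kcn symbol that do not encode channels were looked at as well. The long noncoding RNA *Kcnq1ot1*, transcribed antisense to *Kcnq1* from an imprinted region, had 920, 1024 and 839 counts in control libraries and 1070, 1645 and 2368 in senescent libraries (log2 fold change 0.37 ± 0.14 SE, adjusted p = 0.043, edgeR's quasi-likelihood test). Its exons cover 2.96% of those of *Kcnq1*, which had 4, 6 and 6 against 17, 26 and 25 counts. *Kcnd3os*, antisense to *Kcnd3*, had 0 counts in control libraries and 4, 5 and 7 in senescent libraries, while *Kcnd3* itself went from 5, 0 and 2 to 39, 60 and 86. *Kcnab3os* was not called (3, 9 and 16 against 11, 20 and 13 counts, adjusted p = 0.77), while *Kcnab3* fell.

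On chromosome 3, *Kcna3*, *Kcna2*, *Kcna10* and *Kcnc4* lie between 107036162 and 107458898. Of these *Kcna3* and *Kcnc4* were at or near 0 in control libraries and at 48 to 64 and 47 to 59 counts in senescent libraries, *Kcna2* reached 19 counts and *Kcna10* at most 4. On chromosome 6 *Kcna6* fell and its neighbour *Kcna1* rose. Among the 93 genes 28 overlap exons of another gene and 26 of these do so on the opposite strand, and 16 share over 1% of their 100-base stretches with another gene, none of them with another potassium channel gene.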
